A study of Bos taurus with 6 samples.

Results

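The myogenic and satellite cell transcription factors of longissimus thoracis (LT) muscle were examined in 6 Korean cattle (Hanwoo) steers. Their members were given by name as 9 genes, PAX7, MYF5, MYF6, MYOD1, MYOG, MEF2A, MEF2C, MEF2D and SIX4, and were not chosen by a measured value of these genes. Earlier results of these data were, however, known when the members were chosen. Of the 9 genes, 8 were matched by symbol among the 23015 rows of the count files, and 7 were among the 15039 rows that passed the filter on low counts. PAX7, the paired-box factor of quiescent satellite cells, was not analysed here. MYF5 had a row but did not pass the filter.

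The study compared LT muscle of steers with a high number of fine marbling particles (high NFMP) and with a low number (low NFMP), to find genes associated with fine marbling. The high-NFMP steers were labelled 3-8, 10-8 and 10-9 and were 32.5, 33.8 and 34.5 months old. The low-NFMP steers were labelled 3-1, 3-3 and 10-16 and were 37.8, 33.7 and 35.4 months old. All 6 were steers of 1 breed on commercial feed, raised in the conventional way, with 1 library per steer (n = 3 per group). What the first number of a steer label stands for is not given in these sources.

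Skeletal muscle fibres form when satellite cells, the stem cells beside the fibre, are activated, divide, leave the cell cycle and fuse. The MYOD family (MYF5, MYOD1, MYOG and MYF6) are basic helix-loop-helix (bHLH) factors that bind DNA with E-protein partners. MYF5 and MYOD1 are known as determination factors of the myoblast, myogenin (MYOG) as the factor of terminal differentiation, and MYF6 (also called MRF4) as the member most expressed in the adult fibre. The MEF2 proteins are MADS-box factors that act with the MYOD family on muscle genes, and SIX4 is a homeobox factor that lies upstream of several of them. In adult muscle MYOG is also known to rise when a fibre loses its nerve supply.

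The libraries held between 16283873 and 17192750 counts. In this 3′ mRNA method reads start near the poly(A) tail, so counts were not divided by transcript length. Levels of different genes are given as counts per 1e6 of the TMM-corrected library size (CPM). How far the annotated 3′ end of each gene catches its reads was not tested. The 6 markers of the skeletal muscle fibre (ACTA1, CKM, MB, DES, TTN and MYLPF) summed to between 1591001 and 1868664 normalized counts in the high-NFMP group and between 1591494 and 1986318 in the low-NFMP group, and 0 of the 6 had an unadjusted p below 0.05 by edgeR. For a normalized count, each library was brought to the mean of the TMM-corrected library sizes. With 3 steers in each group the smallest p of an exact permutation test is 0.1. The smaller p-values and the intervals thus rest on the spread that edgeR's quasi-likelihood test estimates across genes. Each standard error was the size of the log2 fold change divided by the square root of that test's F statistic. The 95% intervals were built from these standard errors.

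The regulators covered a wide range of levels. MEF2C was the most abundant, with a mean of 732 CPM and a range of 675 to 815, which placed it at position 123 of all rows. MEF2D followed at 157 CPM, MEF2A at 108, MYF6 at 99.1, MYOG at 55.2, MYOD1 at 44.7 and SIX4 at 32.7. MYF5 was rare, at 0.91 CPM, and held 89 counts in all 6 libraries together. MEF2C lay above MEF2D, MEF2D above MEF2A, MYF6 above MYOG and SIX4 above MYF5 in 6 of 6 steers. MEF2A and MYF6 could not be ordered, since MEF2A was the higher in 3 of 6 steers, nor could MYOG and MYOD1, with MYOG the higher in 3 of 6. MYOD1 was above SIX4 in 5 of 6 steers.

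**Figure D1:**
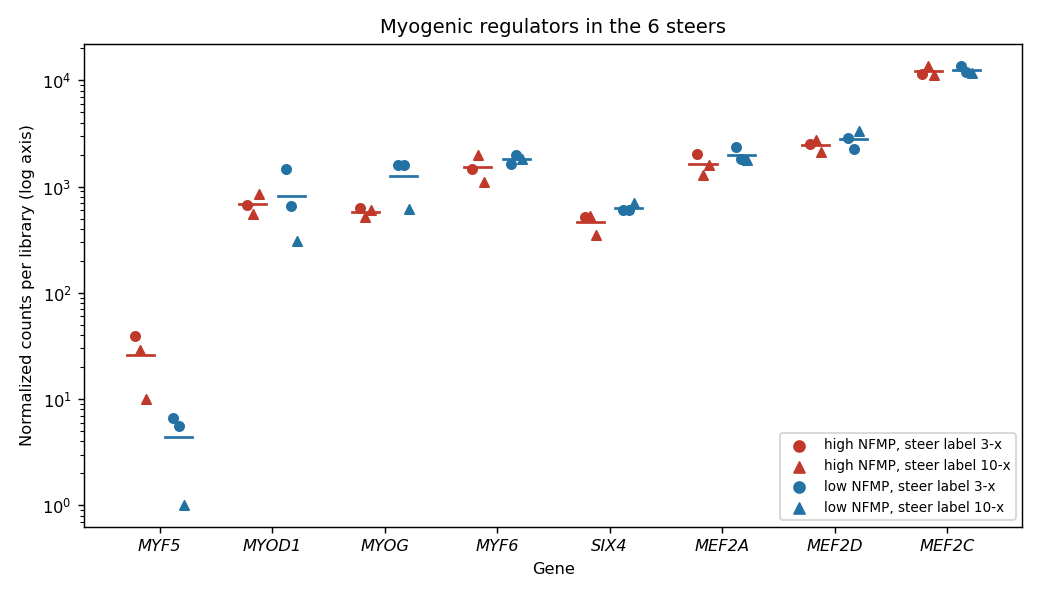
Normalized counts of the 8 counted regulators (log axis) in each steer, in red for high NFMP and blue for low NFMP, with circles for steer labels that begin with 3, triangles for those that begin with 10 and bars for group means. MYF5 lies below 40 counts in every steer and separates the groups, whereas MEF2C lies between 11343 and 13684 and does not.

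In the comparison of high with low NFMP, MYOG was the one tested regulator past the threshold of the study's methods, a fold change above 2 together with an unadjusted p below 0.05. It was lower in the high-NFMP group. That threshold was passed in the lower direction by 1.36% of all tested genes, in the higher direction by 2.53% and in either by 3.9%. The balance of the directions moved with the setting, from 381 calls higher and 205 lower to 366 and 378 without steer 3-8, 315 and 248 with library totals alone, 373 and 278 with age as a term, and 400 and 154 with the first number of the label as a term. None of the 7 had a Benjamini-Hochberg adjusted p below 0.05 by edgeR, which 0.685% of all tested genes had, while 2 of the 7 (MYOG and SIX4) had an unadjusted p below 0.05, against 11.5% of all tested genes. The fitted log2 fold change was below 0 in all 7, with a median of -0.24, where 48.1% of all tested genes were below 0 and their median was 0.02. For MEF2C and MYOD1 this sign turned when certain single steers were omitted. The rare MYF5 went the other way and was higher in the high-NFMP group.

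**Figure D2:**
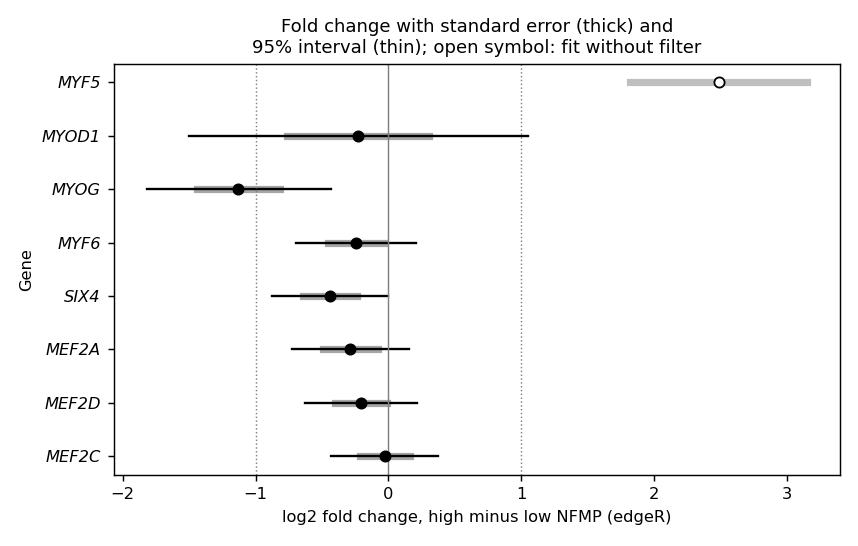
The log2 fold change of each regulator (high minus low NFMP, x axis) by edgeR, with the standard error as a thick bar and the 95% interval as a thin line. MYF5 is drawn as an open symbol from the fit without a filter and with its standard error only, and dotted lines mark a fold change of 2. MYOG lies at -1.13 and MYF5 at 2.49, and the intervals of the other tested genes reach 0 or end beside it.

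Myogenin, the differentiation factor, had 623.2, 514.5 and 606.8 normalized counts in the high-NFMP steers 3-8, 10-8 and 10-9. In the low-NFMP steers 3-1, 3-3 and 10-16 it had 1607, 1599 and 609.8. Steers 3-1 and 3-3 thus stood above the other 4, and steer 10-16 lay among the high-NFMP steers, so the groups overlapped. The means were 581.5 ± 58.6 (SD, n = 3) and 1272 ± 573 (SD, n = 3), and the log2 fold change was -1.13 (standard error 0.32, 95% interval -1.82 to -0.43, unadjusted p = 0.00432 and adjusted p = 0.186 by edgeR). The exact permutation test (two-sided) on log2(normalized count + 1) gave p = 0.2.

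The difference in MYOG was found among the steers whose label begins with 3. There, 1 high-NFMP steer had 623.2 normalized counts against a mean of 1603 in 2 low-NFMP steers. Among the steers whose label begins with 10, the mean of 2 high-NFMP steers was 560.6 against 609.8 in 1 low-NFMP steer. With that number as a term the log2 fold change was -0.75 (unadjusted p = 0.0187 by edgeR), short of a 2-fold change. Without steer 3-1 it was -0.93 and without steer 3-3 also -0.93, both inside the limit, and without steer 10-16 it was -1.43 with an adjusted p of 0.0188. DESeq2 gave -1.13 with an adjusted p of 0.0174, and the adjusted p of the other alternatives lay between 0.0188 and 0.495.

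MYF5, a determination factor of the myoblast that is known from a part of the satellite cells, held 39, 26 and 10 counts in the high-NFMP steers 3-8, 10-8 and 10-9. Its counts in the low-NFMP steers 3-1, 3-3 and 10-16 were 7, 6 and 1. Every high-NFMP steer was above every low-NFMP steer, although 10 and 7 counts are close for counts of this size. The filter, which used library totals without the TMM correction, asked for 0.5954 CPM in 3 libraries. On that scale MYF5 reached this limit in 2 libraries, with the next at 0.5953. In the fit without a filter, MYF5 had 26.2 ± 14.9 against 4.42 ± 3.01 normalized counts (SD, n = 3 each), a log2 fold change of 2.49 (standard error 0.67, unadjusted p = 0.000439 and adjusted p = 0.0446 by edgeR). In that fit 2.72% of 23015 rows were called in the higher direction and 1.04% had an adjusted p below 0.05.

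Without a filter, the log2 fold change of MYF5 lay between 2.05 and 2.92 with a steer left out. Its adjusted p in these fits ran from 0.00155 without steer 10-9 to 0.237 without steer 3-8, and it was above 0.05 in 4 of the 6 fits, those without 3-8, 10-8, 3-3 or 10-16. It was 0.0637 by DESeq2, 0.444 with age as a term and 0.46 with quantile normalization and limma. The direction was the same within each label number, with 39.5 against a mean of 6.13 normalized counts for labels that begin with 3, and a mean of 19.5 against 1.01 for labels that begin with 10. The last of these values is a single read. In bulk muscle, fewer cells of a type and less RNA per cell cannot be told apart.

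MYOD1, the determination factor that gives the family its name, had 667.8, 557.9 and 849.5 normalized counts in the high-NFMP steers. The low-NFMP steers 3-1, 3-3 and 10-16 had 1465, 658.9 and 307.9. The highest and the lowest of the 6 values were thus both in the low-NFMP group, whose values spanned 4.76-fold, against 1.52-fold in the high-NFMP group. Of the 7 tested regulators MYOD1 varied most between steers, with a biological coefficient of variation of 44.4%, where the trend for genes of its level was 19.8%. The log2 fold change was -0.23 (standard error 0.53, 95% interval -1.50 to 1.05, unadjusted p = 0.68 by edgeR), so a change of 2-fold in either direction lay within the interval. Without steer 3-1 it was 0.51.

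MYF6, the member of the adult fibre, had 1473, 1987 and 1112 normalized counts in the high-NFMP steers and 1622, 1980 and 1811 in the low-NFMP steers. The low-NFMP values lay inside the range of the high-NFMP values. Its log2 fold change was -0.24 (standard error 0.21, 95% interval -0.70 to 0.21, unadjusted p = 0.269 by edgeR), an interval that holds no 2-fold change. It was -0.45 without steer 10-8 (unadjusted p = 0.0438 by edgeR) and -0.04 without steer 10-9. In RefSeq's table of cattle genes (assembly ARS-UCD2.0), MYF6 and MYF5 are neighbours on chromosome 5 and their spans do not overlap. Their counts were far apart, with means of 1664 and 15.3 normalized counts over the 6 steers.

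Within the MYOD family, MYF6 held the largest share of the family's counts in each steer, between 34.5% and 66.3%. MYOG held 22.2%, 16.7% and 23.5% in the high-NFMP steers 3-8, 10-8 and 10-9, whereas its shares in the low-NFMP steers 3-1, 3-3 and 10-16 were 34.2%, 37.7% and 22.3%. Steer 10-16 was again among the high-NFMP steers, and in steer 3-1 MYOG and MYF6 were nearly level, at 34.2% and 34.5%. The mean share of MYOG was 20.8% ± 3.65 against 31.4% ± 8.04 (SD, n = 3 each), and an exact permutation test (two-sided) gave p = 0.2 and p = 0.7 after adjustment over 7 shares. MYF5 held 0.91% ± 0.51 against 0.10% ± 0.06 (SD, n = 3 each), for which the exact test gave p = 0.1, the smallest it can give, and p = 0.7 after the same adjustment. The sum of the 4 genes was 2804, 3088 and 2578 normalized counts in the high-NFMP steers and 4700, 4244 and 2730 in the low-NFMP steers.

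**Figure D3:**
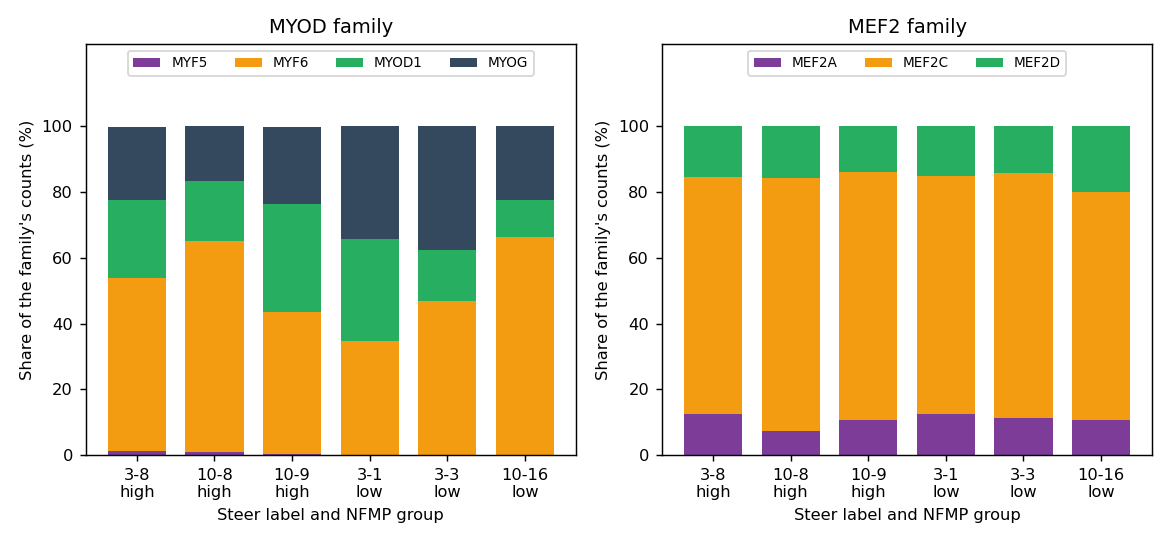
Share of the counts of the MYOD family (left) and of the MEF2 family (right) held by each member, in percent, for each steer with its NFMP group. MYOG holds 34.2% and 37.7% in steers 3-1 and 3-3 and between 16.7% and 23.5% in the other 4 steers, while MEF2C holds between 69.3% and 77.1% throughout.

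MEF2C, the MEF2 member known for its part in fibre integrity and slow fibre genes, had 11601, 13565 and 11343 normalized counts in the high-NFMP steers and 13684, 11939 and 11620 in the low-NFMP steers. The 2 groups covered nearly the same range. For MEF2C the log2 fold change was -0.03 (standard error 0.19, 95% interval -0.43 to 0.37, unadjusted p = 0.88 by edgeR), and its coefficients of variation within the groups were 9.99% and 8.95%.

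MEF2D, whose muscle isoform is known from differentiation, had 2499, 2764 and 2103 normalized counts in the high-NFMP steers and 2874, 2255 and 3368 in the low-NFMP steers. Its log2 fold change was -0.21 (standard error 0.20, 95% interval -0.63 to 0.22, unadjusted p = 0.314 by edgeR). MEF2A, the third muscle member, had 2032, 1274 and 1601 against 2366, 1835 and 1780. Its groups overlapped through steer 3-8, and its log2 fold change was -0.29 (standard error 0.21, 95% interval -0.73 to 0.15, unadjusted p = 0.186 by edgeR). Single steers moved both values, MEF2A to -0.47 without steer 3-8 (unadjusted p = 0.0364 by edgeR) and to -0.11 without steer 10-8, and MEF2D to -0.35 without steer 3-3 and to -0.03 without steer 10-16. None of the 3 intervals with all steers holds a 2-fold change. MEF2C held 74.8% ± 2.63 of the family's counts in the high-NFMP group and 72.0% ± 2.60 in the low-NFMP group (SD, n = 3 each), with p = 0.3 by the exact permutation test.

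SIX4 had 518.8, 532.3 and 350.0 normalized counts in the high-NFMP steers and 597.1, 598.7 and 702.7 in the low-NFMP steers. Each high-NFMP steer was below each low-NFMP steer, with the lowest value in steer 10-9. The means were 467.1 ± 102 and 632.8 ± 60.5 (SD, n = 3 each), and the log2 fold change was -0.44 (standard error 0.20, 95% interval -0.88 to -0.00077, unadjusted p = 0.0496 and adjusted p = 0.435 by edgeR). The fold change was below 2, and without steer 10-9 or 10-16 the log2 fold change was -0.25 or -0.33 with an unadjusted p of 0.206 or 0.183 by edgeR. The unadjusted p of SIX4 was above 0.05 in 9 of 14 alternatives, among them DESeq2 (0.0562), the label number as a term (0.0604) and age as a term (0.0679). Of the 7 tested regulators SIX4 alone did not overlap between the groups, and 17.1% of all tested genes did not.

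Other genes of the myogenic programme were taken as whole lists. Of 95 listed genes in 5 lists, 88 were tested, and 4 met both the p and the fold change limit, all of them lower in the high-NFMP group, beside 1.36% of all tested genes called lower and 3.9% called in either direction. They were PAX3, CHRNA1, MYMK and FGFR4. PAX3 passed the filter on low counts through the low-NFMP libraries alone, so its place among the tested genes depends on the direction it shows. MYMK reached the filter's CPM in 3 low-NFMP libraries and in 1 high-NFMP library, so its place rested on the low-NFMP group too. With at least 10 counts asked of every library, PAX3 and MYMK were not tested and 2 calls were left. That all calls were lower did not hold in every fit. There were 3 higher and 3 lower without steer 3-3 and likewise without steer 10-16, 2 and 3 without steer 10-8, 1 and 2 without steer 3-1, 1 and 4 by DESeq2 or without a filter, and 2 and 1 with age as a term.

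In the list of fusion, regeneration and denervation genes, 2 of 16 tested genes were called lower and 0 called higher, while 7 were fitted above 0 and 9 below, with a median log2 fold change of -0.01. CHRNA1, the alpha subunit of the muscle acetylcholine receptor and a classical target of MYOG, had 482.4, 813.5 and 730.1 normalized counts in the high-NFMP steers. The low-NFMP steers 3-1, 3-3 and 10-16 had 1645, 2153 and 1183. All low-NFMP steers were above all high-NFMP steers, steer 10-16 being the lowest of its group here as in MYOG. For CHRNA1 the log2 fold change was -1.30 (standard error 0.25, unadjusted p = 0.000128 and adjusted p = 0.0301 by edgeR), the one gene of the 88 with an adjusted p below 0.05. With a steer left out it stayed between -1.46 and -1.07 and past the p and fold change threshold, and the adjusted p was above 0.05 in 5 of these 6 fits, reaching 0.162 without steer 3-3. It was also above 0.05 with the label number as a term (0.123), with age as a term (0.153) and with quantile normalization and limma (0.262). CHRNA1 was still called in each of these fits by its unadjusted p and its size. For labels that begin with 3, CHRNA1 had 482.4 normalized counts in 1 high-NFMP steer against a mean of 1899 in 2 low-NFMP steers. For labels that begin with 10, the mean of 2 high-NFMP steers was 771.8 against 1183 in 1 low-NFMP steer. The log2 ratios were -1.98 and -0.62, the latter less than a 2-fold difference.

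MYMK, the membrane protein of myoblast fusion, held 6, 7 and 11 counts in the high-NFMP group and 34, 13 and 22 in the low-NFMP group. It reached the filter's CPM in 3 low-NFMP libraries and in 1 high-NFMP library, so its place among the tested genes rested on the low-NFMP group. Its fold change is therefore given as a description. MYMK lay at -1.41 on the log2 scale of fold change (standard error 0.56, unadjusted p = 0.0247 and adjusted p = 0.349 by edgeR). The p limit was missed without steer 3-8, 10-8, 3-1 or 10-16, and with age as a term the log2 fold change was -0.63. The list also held 2 genes on the other side with an unadjusted p below 0.05 and less than a 2-fold difference. CDKN1C, a cell cycle inhibitor, had 991.2 ± 21.3 against 695.5 ± 153 normalized counts (SD, n = 3 each) without overlap, at a log2 fold change of 0.51 (unadjusted p = 0.0199 by edgeR). ANKRD1, an ankyrin repeat protein of the sarcomere, was at 0.73 with overlapping groups (unadjusted p = 0.0312 by edgeR). The embryonic myosin MYH3 had a log2 fold change of 0.14 (unadjusted p = 0.592), the perinatal myosin MYH8 of -0.21 (unadjusted p = 0.263) and the receptor kinase MUSK of -0.15 (unadjusted p = 0.52), each by edgeR. MYMX, CHRNG and TNNT2 were too rare to be tested.

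**Figure D4:**
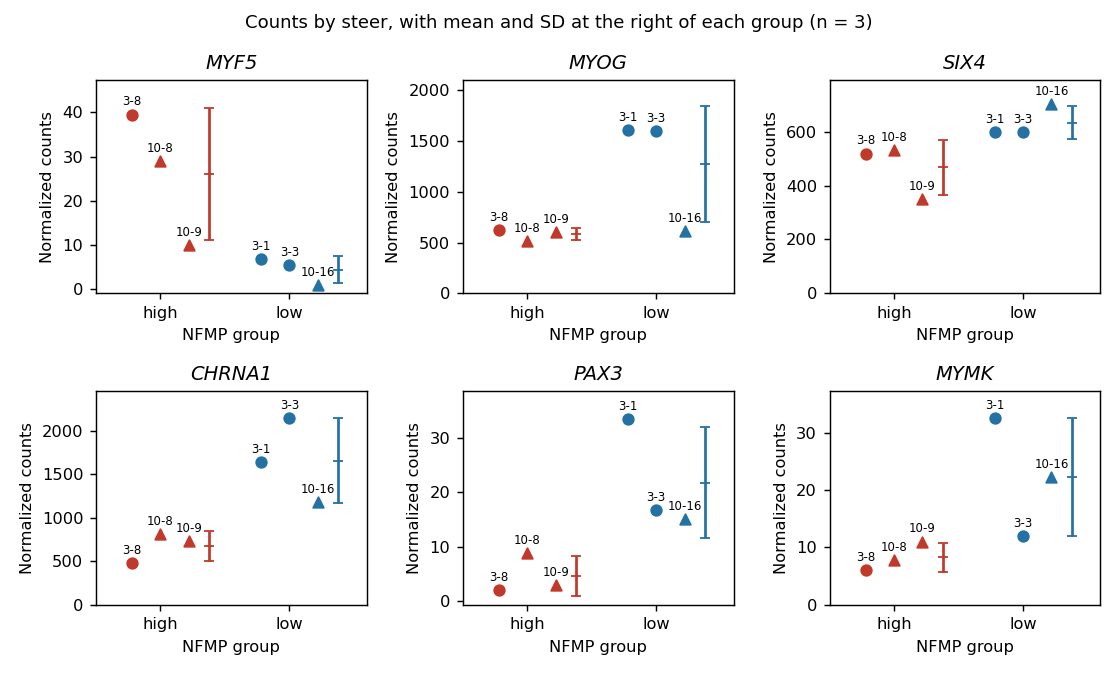
Normalized counts in each steer for MYF5, MYOG, SIX4, CHRNA1, PAX3 and MYMK, in red for high NFMP and blue for low NFMP, with circles and triangles for steer labels that begin with 3 and 10, and the mean with its SD (n = 3) at the right of each group. The genes were picked with their values known, and the groups do not overlap in 5 of them (17.1% of all tested genes do not). MYF5 is not one of those tested genes, and PAX3 and MYMK passed the filter on low counts only because of the low-NFMP libraries. In MYOG steer 10-16 lies at 609.8 among the high-NFMP steers.

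Among 19 other homeobox, paired-box and cofactor genes, 1 (PAX3) was called lower and 0 called higher, while 7 were fitted above 0 and 12 below, with a median log2 fold change of -0.09. PAX3, the paired-box relative of PAX7, held 2, 8 and 3 counts in the high-NFMP group and 35, 18 and 15 in the low-NFMP group. Every low-NFMP steer lay above every high-NFMP steer at these low counts. PAX3 reached the filter's CPM in the 3 low-NFMP libraries and in 0 of the high-NFMP libraries, so a gene that entered in this way had to differ, and its fold change is given as a description. Without a filter it was -2.23 (unadjusted p = 0.00182 and adjusted p = 0.109 by edgeR). With the filter its log2 fold change was -2.22 (standard error 0.66, unadjusted p = 0.00428 and adjusted p = 0.185 by edgeR), between -3.02 and -1.77 with a steer left out, and -1.61 with an unadjusted p of 0.0555 with age as a term. VGLL2, a cofactor of TEAD factors in muscle, lay in the other direction with nearly the same p. It was far more abundant, with 1657 ± 382 against 995.3 ± 224 normalized counts (SD, n = 3 each) in groups that overlapped, and its log2 fold change was 0.73 (standard error 0.22, unadjusted p = 0.00433 and adjusted p = 0.186 by edgeR).

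Of 18 tested satellite cell surface and quiescence markers, 1 was called lower and 0 called higher, while 13 were fitted above 0 and 5 below, with a median log2 fold change of 0.27. FGFR4, a fibroblast growth factor receptor of myogenic cells, had 36.5, 21.1 and 64.2 against 92.8, 112.9 and 47.5 normalized counts, and steer 10-16 lay below steer 10-9. Its log2 fold change was -1.05 (standard error 0.43, unadjusted p = 0.0275 and adjusted p = 0.364 by edgeR), and it missed the threshold without steer 3-8, 10-8, 3-1 or 3-3, with a weakest value of -0.71. With the label number as a term FGFR4 was at -0.82 (unadjusted p = 0.124 by edgeR) and with age as a term at -1.02 (unadjusted p = 0.0692 by edgeR), so neither fit called it. Among the steers whose label begins with 10, its means were 42.7 in 2 high-NFMP steers and 47.5 in 1 low-NFMP steer. VCAM1 and SDC3 did not pass the filter on low counts and were not tested. ITGB1, an integrin subunit, was at a log2 fold change of -0.56 (unadjusted p = 0.0136 by edgeR), which missed the fold change limit. The growth factor receptors FGFR1 and MET missed it too, at 0.53 (unadjusted p = 0.0185 by edgeR) and 0.44 (unadjusted p = 0.0279 by edgeR). CALCR, the calcitonin receptor, had 27.3 ± 7.09 against 18.6 ± 8.87 normalized counts, and CDH15, M-cadherin, had 102.5 ± 28.7 against 110.6 ± 25.6 (SD, n = 3 each).

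The bHLH partners and inhibitors included 15 tested genes, of which 0 were past the threshold, while 11 were fitted above 0 and 4 below, with a median log2 fold change of 0.24. An unadjusted p below 0.05 was found for 2 of them, ID2 and BHLHE41, the latter a bHLH repressor at 0.60 with overlapping groups (unadjusted p = 0.0267 by edgeR). The smallest p belonged to ID2, an inhibitor that binds E-proteins and keeps them from the MYOD family. It had 836.0, 674.5 and 894.6 normalized counts in the high-NFMP steers and 391.4, 324.8 and 540.1 in the low-NFMP steers. The groups did not overlap, and the log2 fold change of 0.94 (standard error 0.22, unadjusted p = 0.000643 and adjusted p = 0.0722 by edgeR) was just inside the 2-fold limit. ID1 and ID3 had log2 fold changes of 0.66 and 0.55 with overlapping groups. The E-proteins TCF3, TCF4 and TCF12 had values of 0.18, 0.24 and -0.26.

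Of 20 MEF2 regulators and cofactors, 0 were past the threshold and 0 had an unadjusted p below 0.05 by edgeR, and the median log2 fold change was 0.14. The smallest p belonged to PPP3R1, the regulatory subunit of calcineurin, at 379.5 ± 54.4 against 480.2 ± 18.9 normalized counts (SD, n = 3 each) and a log2 fold change of -0.34 (unadjusted p = 0.0945). The class II histone deacetylases HDAC4, HDAC5, HDAC7 and HDAC9, which hold MEF2 inactive, had log2 fold changes of 0.40, 0.36, -0.25 and 0.24.

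**Figure D5:**
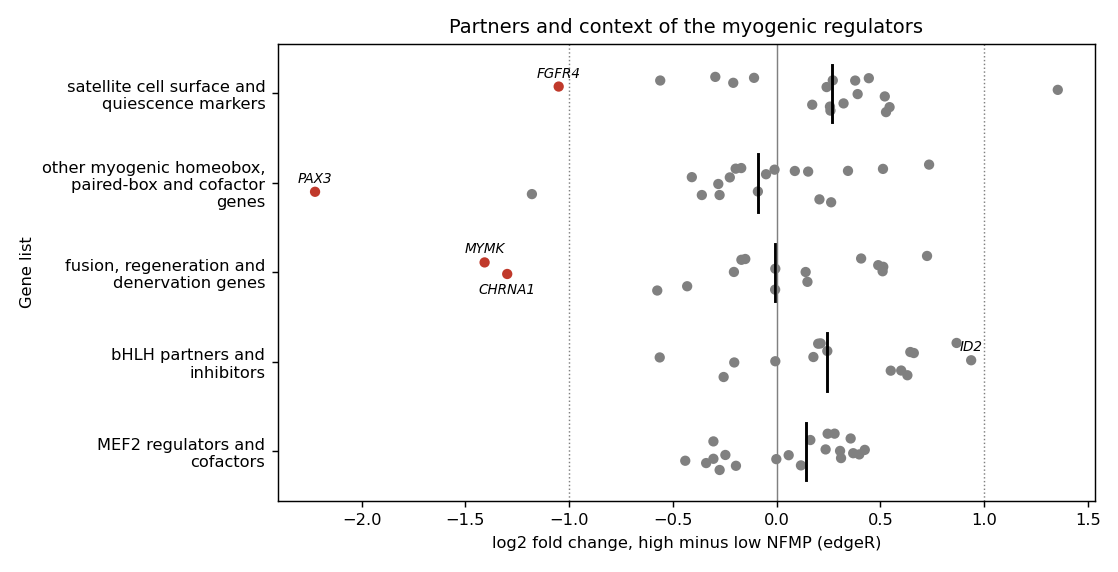
The log2 fold change (high minus low NFMP, x axis) of each of the 88 tested genes in the 5 lists, with a black line at the list's median and dotted lines at a fold change of 2. The 4 genes past the p and fold change threshold, PAX3, CHRNA1, MYMK and FGFR4, are red and lie below -1, and ID2 at 0.94 is named as well.

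Cells other than fibres also contribute RNA to these libraries. The 6 adipocyte markers summed to between 3284 and 9179 normalized counts in the high-NFMP group and between 3053 and 4316 in the low-NFMP group. Of the 6, 0 passed the threshold, although all 6 were fitted above 0 and 2 (CIDEC and ADIPOQ) had an unadjusted p below 0.05 by edgeR. Steer 3-8 had the highest value in each of the 6. FABP4 had 4945, 1618 and 1019 normalized counts in the high-NFMP steers 3-8, 10-8 and 10-9, against 1617, 2044 and 1294 in the low-NFMP steers. LEP had 193.6, 47.78 and 52.15 against 63.15, 75.88 and 73.7. The groups overlapped in PLIN1, LEP, FABP4 and LPL, and did not in CIDEC and ADIPOQ. The 6 fibroblast markers summed to between 12038 and 15041 against between 9319 and 12270, the 5 endothelial markers to between 920.1 and 1297 against between 836.9 and 1097, and the 5 macrophage markers to between 514.5 and 781.3 against between 415.3 and 776.4. The 4 smooth muscle and pericyte markers summed to between 1147 and 1816 against between 1030 and 1519. Among these, PDGFRA, a marker of fibro-adipogenic progenitors, was at a log2 fold change of -0.51 (unadjusted p = 0.0391 by edgeR), while the other 5 markers of its list were fitted above 0. The endothelial CLDN5 was at 0.93 (unadjusted p = 0.00987 by edgeR) and the macrophage C1QA at 0.73 (unadjusted p = 0.0307 by edgeR), but 3 of the 5 endothelial and 2 of the 5 macrophage markers were fitted below 0. Of all 32 markers, fibre markers included, 7 did not overlap between the groups (CIDEC, ADIPOQ, CLDN5, C1QA and CSF1R higher, PDGFRA and CDH5 lower in the high-NFMP steers), a share of 21.9% beside 17.1% of all tested genes. No marker was at 0 counts. None of these markers passed the threshold, and the part of these cell types in the values of MYOG, MYF5 and SIX4 was not tested.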

How the data were processed

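Total RNA of LT muscle of each steer was made into a 3′ mRNA library and sequenced by the authors, who deposited raw read counts per gene symbol. Per the methods, reads were mapped to UMD3.1 with Tophat2 and counted with HTSeq, or aligned with Bowtie2 with unique and multiple alignments counted. The submitters' processing notes name Bowtie2 and bedtools. Which route made the counts, and whether strand was used, these sources do not state. Counts were tested in R 4.3.3 with edgeR 4.0.16 (filterByExpr with a minimum count of 10 and total of 15, TMM factors between 0.9155 and 1.083, robust quasi-likelihood test, Benjamini-Hochberg adjustment over 15039 rows). The filter kept at least 99.85% of the counts of a library. MYF5 was tested without the filter, an alternative that was carried through further settings only after the data were seen. Steers of a group are separate animals.

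The members and lists were chosen with earlier results of these data known. The genes named are the 9 members, the list genes past the threshold or, where a list had none, the one with the smallest p, and the genes most like MYOG and MEF2C or beside a member. Other genes of the lists (ID1, ID3, the E-proteins, HDACs, MYH3, MYH8, MUSK, CALCR, CDH15, ITGB1, FGFR1, MET, VCAM1, SDC3, VGLL2, CDKN1C, ANKRD1, BHLHE41, MYMX, CHRNG, TNNT2), the markers PDGFRA, CDH5, CLDN5, C1QA, CSF1R, CIDEC, ADIPOQ, PLIN1, LEP, FABP4 and LPL, and CHRNB1, CHRND and CHRNE were named after their values were seen. A gene of the lists is not reported here. DESeq2 1.42.0 and limma 3.58.1 (quantile normalization, pseudocount 1) were alternatives. The fits were tested on simulated data. Reads carry no molecular identifiers, so they are not independent molecules.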

Additional observations from a re-analysis of the deposited data

How the results depend on the processing

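No paired analysis was possible because the labels number no replicates. The first number of the steer label, which both groups share (3 or 10), does not pair single steers and was fitted as a term. MYOG kept its direction in all 14 alternatives and lost its place past the threshold at a log2 fold change of -0.75 with this label number as a term and of -0.99 with quantile normalization and limma, so that 0 tested members were called in these 2 settings, with 1 member at an unadjusted p below 0.05 in each. Leaving out 1 steer, MYOG lay between -1.43 and -0.93, and between 0 and 1 members were called. MYOD1 turned to 0.46 with age as a term, 0.25 with the label number and 0.057 with quantile normalization and limma, and lay between -0.58 and 0.51 without 1 steer. MEF2C turned to 0.063 with age and lay between -0.083 and 0.044 without 1 steer. MYF6, MEF2A, MEF2D and SIX4 kept their sign and stayed outside the threshold in all 14 alternatives, but without 1 steer MYF6 lay between -0.45 and -0.04, MEF2A between -0.47 and -0.11, MEF2D between -0.35 and -0.03 and SIX4 between -0.52 and -0.25. MYF5 stayed past the threshold in its 12. The 4 list genes became 2 with at least 10 counts in every library, where PAX3 and MYMK were not tested, and with age as a term 2 list genes were called higher and 1 lower. Of all tested genes, 586 were called, 364 with at least 10 counts in every library and 969 without a filter. At an adjusted p below 0.05 there were 103, 240 without a filter, 287 by DESeq2, 31 with age, between 28 and 82 without 1 steer, and 0 with quantile normalization and limma, where 1657 had an unadjusted p below 0.05. The cause of these changes was not tested. MYF5 rested on 89 counts in all libraries together, and the part of depth in its values was not tested.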

Other observations

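The genes whose levels were most like MYOG over the 6 steers, among 10867 genes with a mean of at least 50 normalized counts, were XPO7 (Pearson r = 0.9998 on log2 CPM), LOC101907883 (r = 0.9954) and PYROXD1 (r = 0.9843). XPO7 had 302.0, 287.8 and 299.9 normalized counts in the high-NFMP steers and 379.9, 376.6 and 299.8 in the low-NFMP steers 3-1, 3-3 and 10-16, so steers 3-1 and 3-3 again stood above the other 4 with a much smaller difference. Over 6 points a value above 0.9 was reached by 110 genes. For MEF2C the nearest were HEBP2 (r = 0.9877), PMEPA1 (r = 0.9857) and TRIM16 (r = 0.9750), each highest in steers 10-8 and 3-1, and 48 genes were above 0.9. These are descriptions over libraries that share their normalization.

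Values of other acetylcholine receptor subunits overlapped between the groups. CHRNB1 had 638.4, 834.6 and 691.0 normalized counts in the high-NFMP steers and 721.5, 861.5 and 781.4 in the low-NFMP steers, and CHRNE had 268.5, 370.1 and 338.0 against 293.8, 187.8 and 553.2. CHRND was counted at most 19 times in a library. Whether CHRNA1 differed from these genes was not tested.

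In RefSeq's cattle genes (ARS-UCD2.0) no gene overlapped one of the 8 counted regulators. Of their neighbours, LYSMD4, beside MEF2A on chromosome 21, was past the p and fold change threshold, at a mean of 95.7 against 41.4 normalized counts and a log2 fold change of 1.20 (unadjusted p = 0.00307 by edgeR), whereas MEF2A was not. The other neighbours that were tested, MNAT1, MYF6, KCNC1 and PPFIA4, did not pass it. Of all tested genes, 2.53% passed it in the higher direction.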
